A study of Mus musculus with 30 samples.

Results

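The heat shock proteins and DnaJ cochaperones of mouse quadriceps muscle and spinal cord were described here as a family of 65 genes. The members were taken by name from the 17420 genes of the deposited table: every gene whose symbol begins with Hspa, Hspb, Hspd, Hspe, Hsph, Dnaja, Dnajb or Dnajc followed by its number. By name, 14 members belong to the HSP70 and HSP110 group (Hspa and Hsph1), 7 carry the Hspb name, 2 are the mitochondrial chaperonin genes Hspd1 and Hspe1, and 4, 11 and 25 carry the Dnaja, Dnajb and Dnajc names. The pattern also took in Hspbap1 and Hspbp1, and it took in Hspb11, an intraflagellar transport gene that lacks chaperone activity in spite of its name. These 3 genes were kept in every count and were set apart from the chaperone classes.

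Poly(A) RNA was sequenced from 15 male mice at 4 months of age, with 1 quadriceps library and 1 whole spinal cord library from each animal. The lysosomal enzyme acid alpha-glucosidase, encoded by Gaa, breaks down glycogen and is missing in Pompe disease. Treated KO mice carried the Gaa KO alleles in the background written B6;129;DBA2/J (Ltbp4D36/D36) and received, on postnatal day 1 to 2, an intravenous dose of an AAV9 vector that expresses secreted human GAA from a liver-muscle promoter. Untreated Gaa KO mice and Gaa WT mice of that background made up a group each, and its label with the Ltbp4 allele was given to the WT mice too. Gaa KO mice and Gaa WT mice in the B6;129 background were the remaining groups. Each of the 5 groups held 3 animals, so that each tissue had 15 libraries. The backgrounds are called mixed and B6129 below. They also differed in the series letter of their library names, so that background and series cannot be told apart. No sham-injected or empty-vector group was analysed here.

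Heat shock proteins bind unfolded polypeptides and keep them from aggregating. HSP70 proteins do so in cycles of ATP binding and hydrolysis that DnaJ proteins start and nucleotide exchange factors end, while HSP110 proteins act as exchange factors. Small heat shock proteins hold unfolded clients without ATP, and in striated muscle they associate with the sarcomere, the filamins and the desmin network. HSP70 and DnaJ members of the endoplasmic reticulum (ER) fold secreted and lysosomal proteins, and those of the mitochondrion import and fold mitochondrial ones. Heat shock factor 1 drives the inducible members during proteotoxic stress.

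Values are the authors' scaled reads, called normalised signal here; a single read was worth 0.0329 to 0.0720 units in quadriceps and 0.0179 to 0.0369 units in cord. Library depth ran from 16854081 to 37136087 reads in quadriceps and from 19208733 to 34207758 in cord. Differences are given as log2 of the signal plus 0.5 with their standard error, which understates the change of genes with low signal. A member is called when limma's Benjamini-Hochberg adjusted p, taken over all genes tested in the tissue, was under 0.05. With 3 animals in each group an exact permutation test of a single gene cannot go below 0.10, so p-values come from the fit across all genes. The p-values measure the spread between the animals of the whole fit. A library far from its group thus also widens the standard error of comparisons between other groups of the tissue. Of the 65 members, 62 reached the level required for testing, 1 unit or more in 3 or more libraries, in quadriceps, where Dnajb3, Dnajb13 and Dnajc6 did not, and 64 reached it in cord, where Hspb3 did not.

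Gaa itself was read in every library as a check of the labels. In quadriceps it had 16.2, 15.4 and 15.7 units in KO B6129 mice, against 308, 258 and 259 in WT B6129 mice. Its level on the mixed background was 17.1, 18.9 and 17.9 units in treated KO mice, 11.6, 16.5 and 16.7 in untreated KO mice and 214, 169 and 254 in WT mice. All KO libraries lay below all WT libraries in both tissues, with differences of -4.07 ± 0.15 and -3.79 ± 0.15 in quadriceps and of -3.70 ± 0.088 and -3.47 ± 0.088 in cord on the log2 scale (B6129 first, limma adjusted p at most 4.52e-09). The mouse gene did not separate treated from untreated KO muscle (0.28 ± 0.15, adjusted p = 0.158), and the human transgene was not analysed here.

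The stress-inducible genes Hspa1a and Hspa1b were far above their group in the quadriceps of WT mixed animal 12 and KO mixed animal 14. In the library of animal 12, 61.3% of the members had the highest level of their group, against 39.6% of all genes tested. This library had the lowest correlation with the mean of its group mates (r = 0.980). In that of animal 14 the shares were 50% of the members and 39.1% of all genes. Over the whole family other quadriceps libraries stood out at least as far as that of animal 14: the shares were 50% and 34.3% in KO B6129 animal 2, 54.8% and 40.1% in WT B6129 animal 6 and 48.4% and 33.0% in treated KO animal 9. Animals 12 and 14 were left out together as an alternative chosen after their values were seen. This was done only for quadriceps comparisons that include their groups, so KO against WT on B6129 was not refitted without them. Without both, 3 members lost a call and 3 gained one in each of the 2 comparisons with untreated KO mixed muscle, and these 12 values are given below with and without the animals.

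In WT B6129 mice Hspa8, the constitutive HSC70, had the highest level of the family in both tissues. Per kilobase of exon, Hspa8 had 429.7 units in quadriceps and 312.1 units in cord, which was 15.8% and 30.7% of the per-kilobase level summed over the family. In quadriceps the next members were small or mitochondrial chaperones: Hspb6 (Hsp20) with 419.8 units per kilobase, Hspb8 with 253.5, Hspa9 (mortalin, the mitochondrial HSP70) with 189.3 and Hspb1 (Hsp25) with 178.2. In cord the next were Hspd1 (HSP60) with 43.2 units per kilobase, Hspa5 (BiP, the HSP70 of the ER) with 38.4, Dnaja2 with 34.5, Hspa9 with 34.3 and Dnajc5 (cysteine string protein, a chaperone of synaptic vesicles) with 33.8. Hspb6 was thus the second most abundant member in muscle and had 4.06 units per kilobase in cord. Hspa8 shares 72.4% of its 61-base windows, the length of a read, with other genes, 67.5% of them with Gm15459. Hspd1 shares 39.5% with other genes. How reads were split between these genes is uncertain, and so are the levels of Hspa8 and Hspd1. The length used was that of all annotated exons of a gene merged, which can far exceed a transcript. For Hspe1 it was 1474 bases, against 774 bases in the longest coding transcript. The order of members was not recomputed with transcript lengths and could differ.

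Set against cord in the same fit, WT quadriceps had higher levels of 39 of the 61 members tested in both tissues and lower levels of 12, where 44.9% and 36.4% of all genes were called higher and lower. The median difference was 0.55 for the members and 0.14 for all genes. All 5 small heat shock proteins tested were higher in quadriceps, with a median difference of 5.90, as were all 10 mitochondrial members, with a median of 1.34. Hspb7, which binds filamin C in heart and skeletal muscle, had 315, 351 and 353 units in WT quadriceps, against 3.30, 1.68 and 0.527 units in WT cord (7.38 ± 0.48, limma adjusted p = 4.32e-13). Hspb6 differed by 6.66 ± 0.31, Hspb2 by 5.90 ± 0.22, Hspb8 by 3.96 ± 0.19 and Hspb1 by 3.32 ± 0.35. The largest difference in the other direction was that of Hspa12a, a diverged HSP70 relative, with 5.37, 8.15 and 6.58 units in quadriceps, against 159, 148 and 138 in cord (-4.38 ± 0.16, adjusted p = 1.84e-18). Hspa4l, an HSP110 gene, followed at -2.91 ± 0.25, then Dnajc5 at -1.48 ± 0.075 and Dnajb1, the heat-inducible HSP40, at -1.40 ± 0.48. The split depended on the scaling: 34 members were higher and 22 lower after quantile normalization, and 33 and 15 in edgeR's quasi-likelihood test, whose scaling moved the median of all genes by -0.15 on the log2 scale. The muscle fibre markers had summed levels of 165200 to 175300 units in WT B6129 quadriceps and 35.0 to 408.5 units in cord.

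**Figure D1:**
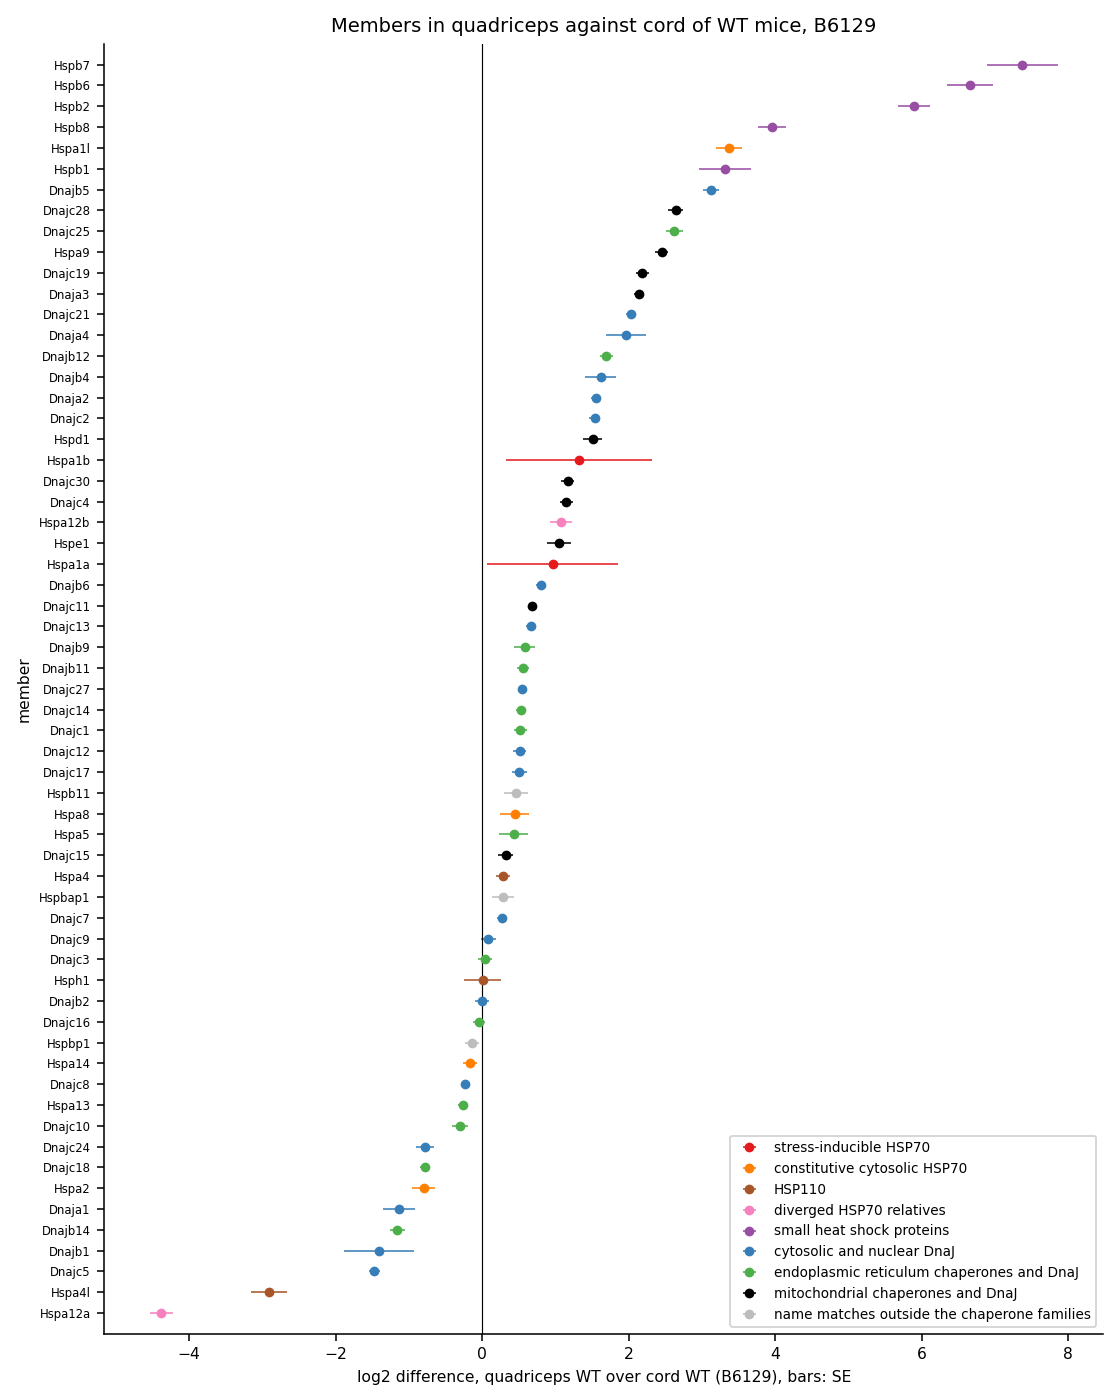
Difference in level between WT quadriceps and WT cord of B6129 mice for the 61 members tested in both tissues, as log2(signal + 0.5) in quadriceps minus cord, with the standard error of the fit as bars. Small heat shock proteins lie at the high end, led by Hspb7 at 7.38, and Hspa12a lies lowest at -4.38.

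Members were called in both directions in KO quadriceps, with small heat shock proteins such as Hspb7 among those higher and DnaJ genes such as Dnajc27 and Dnajc13 among those lower. In KO B6129 mice 8 members were higher and 11 lower than in WT B6129 mice, of 62 tested, where 16.7% and 19% of all genes were called higher and lower. In KO mixed mice 8 members were higher and 13 lower than in WT mixed mice, where 17.1% and 22.3% of all genes were called. The members' median difference was -0.0065 on B6129 and 0.041 on the mixed background, against -0.025 and -0.035 for all genes tested. The shares of members called were thus near those of all genes. Without animals 12 and 14 the mixed counts were 10 higher and 11 lower. The KO comparisons of the backgrounds share no library. Of the 8 members higher on each background, 5 were higher on both (62.5% of each list): Hspb7, Hspb3, Hspb2, Hspa2 and Dnajb11. Of all genes called higher, 68.7% of the B6129 list and 67.1% of the mixed list were higher on both. Of the members lower, 10 were lower on both, which was 90.9% of the B6129 list and 76.9% of the mixed list, where the shares over all genes called lower were 75% and 64%. Overlap of the calls between backgrounds was thus frequent over all genes. No member was called in opposite directions. Beside the members described below, Dnajc18 (0.32 ± 0.078) and the spliceosome-associated Dnajc8 (0.19 ± 0.063) were higher on B6129, the Dnajc8 call being lost without KO animal 2 or 3 or WT animal 4 or 5 (0.17 to 0.19, adjusted p = 0.0662 to 0.109); Hspa13 (0.33 ± 0.078) and Dnajc14 (0.31 ± 0.075) were higher on the mixed background. The 43 members not called on B6129 lay between -0.36 and 1.64, and the 41 not called on the mixed background between -0.28 and 0.54.

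**Figure D2:**
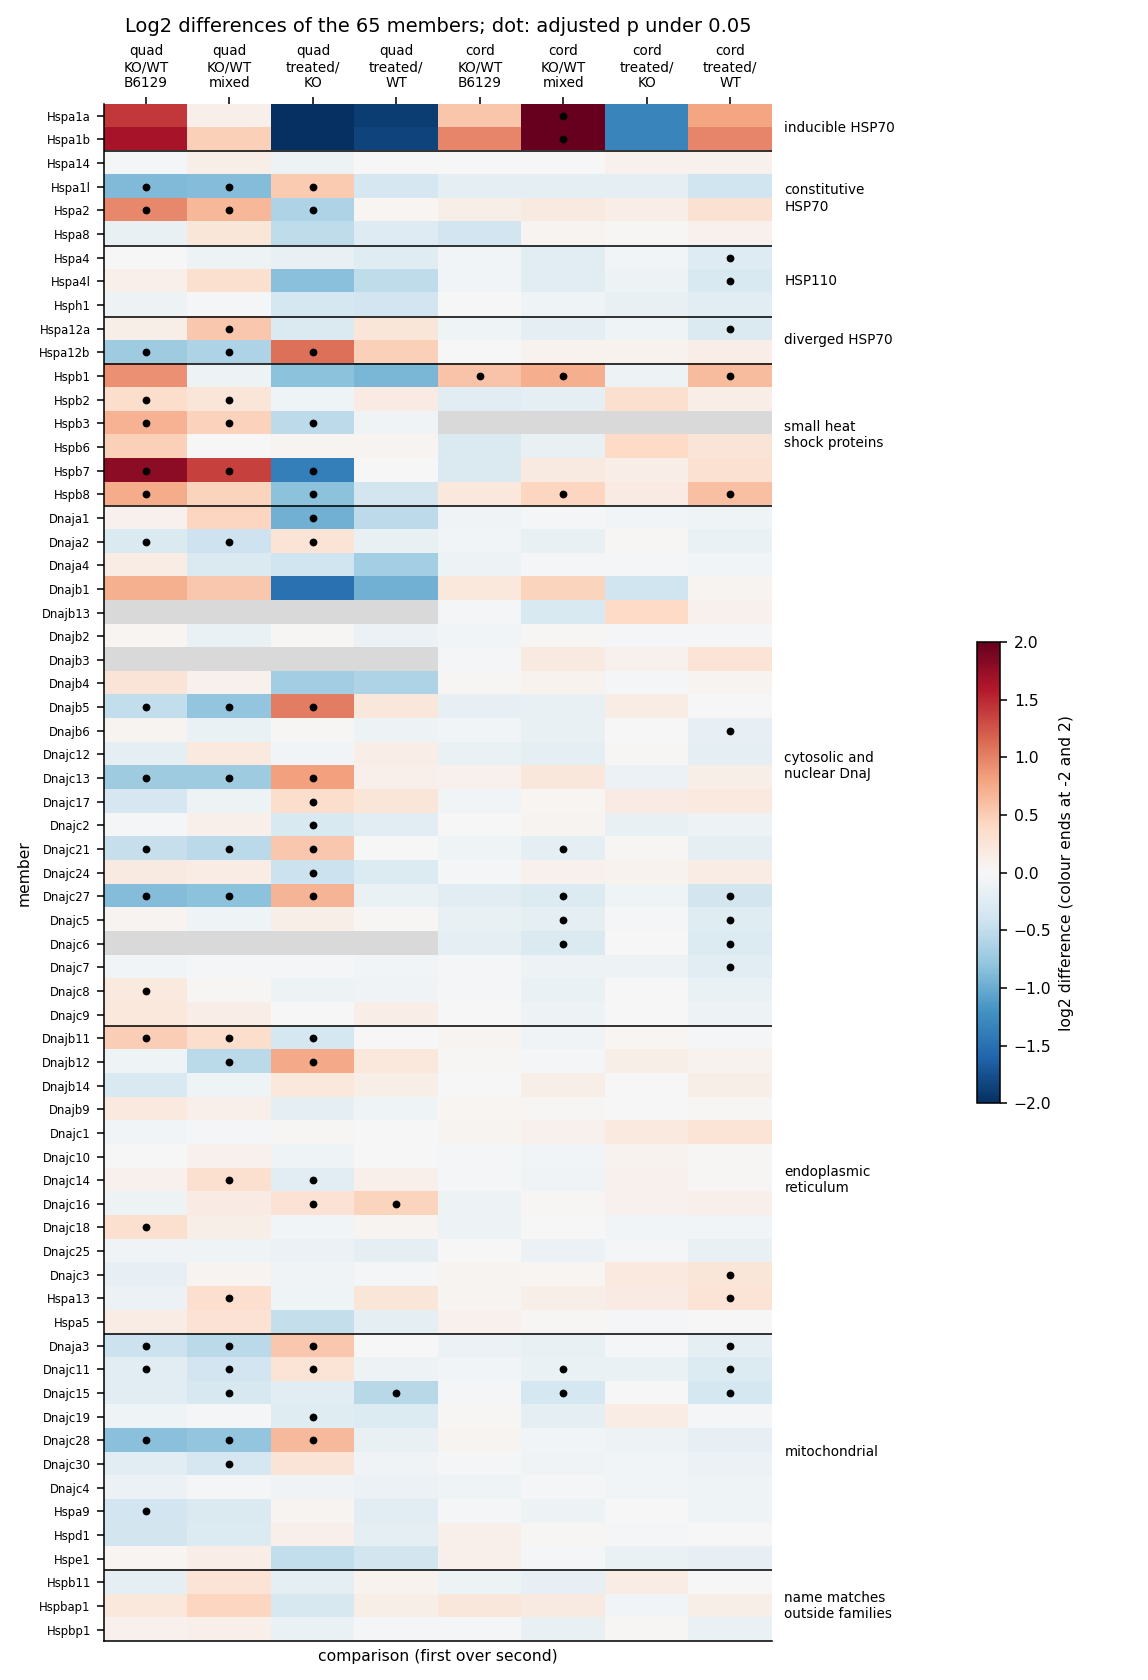
Log2 difference of each of the 65 members in 8 comparisons, grouped by chaperone class, with colour from blue (lower in the first-named group) to red (higher), capped at 2 either way. Dots mark members past the adjusted p of 0.05 and grey marks members not tested; dots are frequent in the first 3 quadriceps columns, while the cord columns of KO against WT on B6129 and of treated against untreated KO mice hold 1 and 0.

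Of the 6 small heat shock proteins, 4 rose and none fell in KO muscle on B6129, with a class median of 0.71, and 3 rose and none fell on the mixed background, with a median of 0.35. Over all genes 16.7% were called higher and 19% lower on B6129, and 17.1% and 22.3% on the mixed background. The class of the inducible pair Hspa1a and Hspa1b had a higher median on B6129 (1.53) with no member called. Hspb7 had 1112, 1316 and 1107 units in KO B6129 mice, against 315, 351 and 353 in WT B6129 mice. Hspb7 on the mixed background had 261, 684 and 444 units in treated KO mice, 982, 1327 and 1036 in untreated KO mice and 316, 284 and 864 in WT mice. Every untreated KO library lay above every WT library of its background, and the WT library of animal 12 lay near the KO libraries. The KO difference was 1.79 ± 0.37 on B6129 (limma adjusted p = 0.00194) and 1.37 ± 0.37 on the mixed background (adjusted p = 0.00938), and 1.75 on the mixed background without animals 12 and 14 (adjusted p = 0.00107).

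Hspb8, which works with the cochaperone BAG3 in the removal of damaged sarcomere proteins, had 769, 864 and 835 units in KO B6129 mice, against 549, 490.1 and 444 in WT B6129 mice. These groups did not overlap, and the difference was 0.74 ± 0.24 (limma adjusted p = 0.0281). It lost its call without KO animal 2 or 3 or WT animal 5 or 6 (0.66 to 0.74, adjusted p = 0.0636 to 0.089). Hspb8 had 794, 707 and 788 units in KO mixed mice, against 482, 402 and 898 in WT mixed mice, where the library of animal 12 lay above all KO libraries. The mixed difference was 0.45 ± 0.24 (adjusted p = 0.156), and without animals 12 and 14 it was 0.85 (adjusted p = 0.00597).

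Hspb3 and Hspb2, which form a complex with each other in muscle, rose by smaller amounts. Hspb3 had 31.1, 37.0 and 38.6 units in KO B6129 mice, against 21.4, 23.8 and 20.3 in WT B6129 mice (0.69 ± 0.14, limma adjusted p = 0.00199), and the groups did not overlap. It had 35.7, 33.9 and 38.5 units in KO mixed mice, against 23.3, 24.1 and 31.6 in WT mixed mice (0.46 ± 0.14, adjusted p = 0.0209), again without overlap. That call was lost without KO animal 13 or 15 or WT animal 7 or 11 (0.38 to 0.46, adjusted p = 0.0512 to 0.0837). Hspb2 differed by 0.36 ± 0.092 on B6129 and by 0.25 ± 0.092 on the mixed background (limma adjusted p = 0.00857 and 0.0458), and the mixed call was lost without KO animal 13 or 15 or WT animal 11 or 12 (0.16 to 0.26, adjusted p = 0.0755 to 0.192). Hspb2 shares 26.9% of its 61-base windows with Cryab, its neighbour, so that reads of these 2 genes may have been split between them.

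Hspb1 was read with more spread. It had 298, 349 and 358 units in KO B6129 quadriceps, against 134, 166 and 252 in WT B6129 quadriceps, and 211, 311 and 274 units in KO mixed mice, against 172, 154 and 822 in WT mixed mice. The B6129 groups did not overlap, but neither difference passed the test (0.91 ± 0.46, limma adjusted p = 0.141, and -0.096 ± 0.46, adjusted p = 0.889). The standard error is shared by all groups of the tissue, so that of the B6129 difference includes the spread of WT mixed animal 12. The B6129 difference was not refitted without that animal. The mixed value turned on animal 12: without that library it was 0.68 (adjusted p = 0.0224), and without both animals 12 and 14 it was 0.56 (adjusted p = 0.0736). Hspb6 differed by 0.47 ± 0.28 on B6129 and by -0.013 ± 0.28 on the mixed background, neither past the test (adjusted p = 0.203 and 0.974); without animals 12 and 14 the mixed value was 0.19 (adjusted p = 0.581). Hspb1 shares 49.8% of its 61-base windows with the pseudogene Hsp25-ps1.

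**Figure D3:**
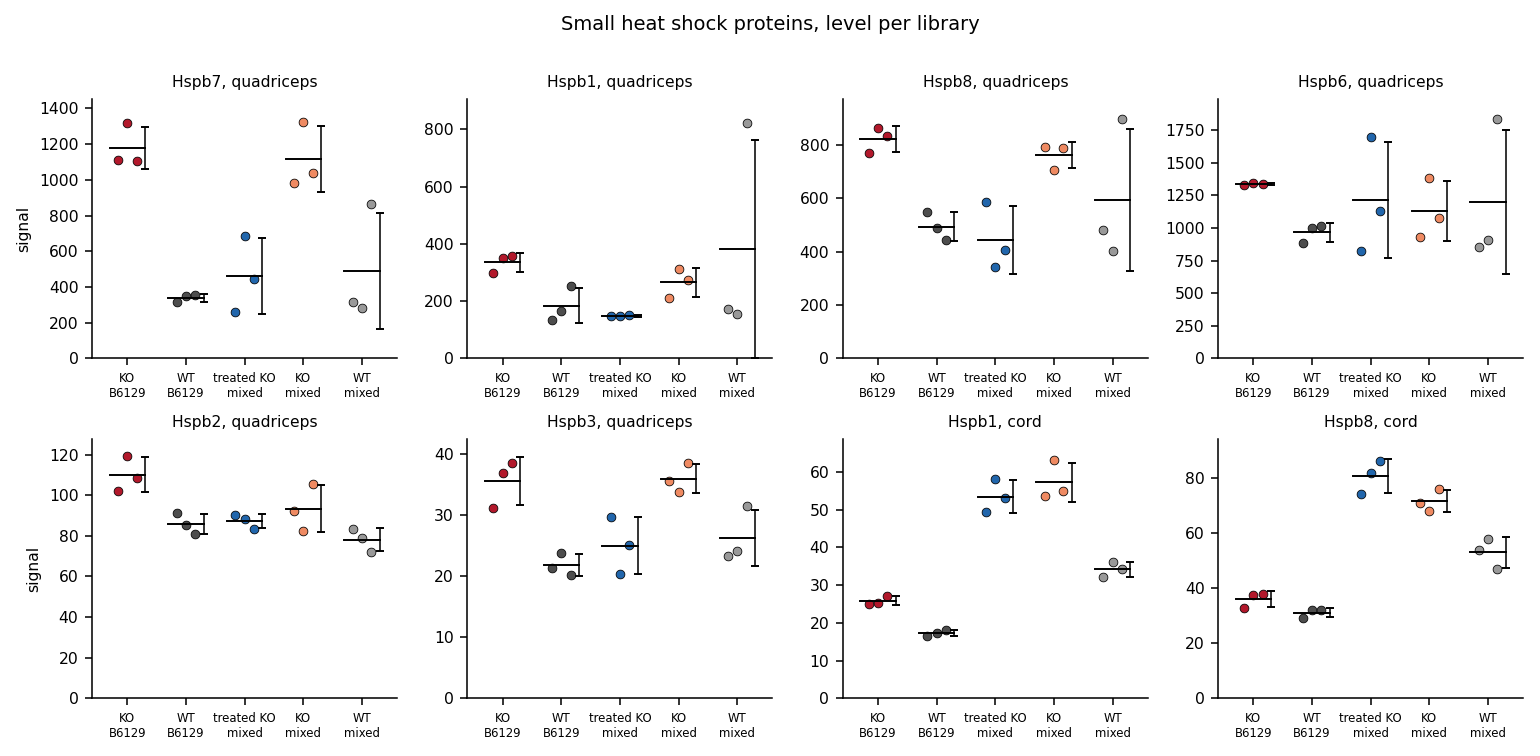
Level of small heat shock proteins in each library (points), with group means (lines) and SD (bars), in normalised signal; quadriceps for Hspb7, Hspb1, Hspb8, Hspb6, Hspb2 and Hspb3, and cord for Hspb1 and Hspb8. Hspb7 lies at 982 to 1327 units in untreated KO quadriceps of both backgrounds and at 261 to 864 units in the other groups, and the WT mixed library of animal 12 lies apart in the panels of Hspb1, Hspb6, Hspb7 and Hspb8.

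Markers of other cell states also differed between the groups in the same libraries. The summed level of 5 genes of embryonic and regenerating muscle was 231.5 to 356.1 units in KO B6129 quadriceps, against 35.2 to 56.7 in WT B6129 quadriceps; on the mixed background it was 35.0 to 46.8 units in treated KO mice, 217.4 to 260.2 in untreated KO mice and 35.3 to 44.2 in WT mice. All 5 were called higher in KO muscle on both backgrounds, and all 6 macrophage markers were as well, summing to 273.7 to 351.7 units in KO B6129 mice, against 51.2 to 71.0 in WT B6129 mice. On the mixed background the macrophage sum was 63.6 to 156.9 units in treated KO mice, 232.8 to 456.3 in untreated KO mice and 86.6 to 126.3 in WT mice. On treatment all 5 genes of regenerating muscle and 5 of the 6 macrophage markers were called lower. Of 4 fibroblast markers 3 were higher in KO B6129 muscle and 2 in KO mixed muscle, of 4 Schwann cell markers none and 2, and none of either list was lower. On treatment no marker of either list was called. Mymk, a gene of muscle cell fusion, had no read in at least 1 quadriceps library; no other marker of these lists was at 0 in any. The 8 muscle fibre markers summed to 129100 to 144000 units in KO B6129 mice, against 165200 to 175300 in WT B6129 mice. On the mixed background the sum was 203000 to 222100 units in treated and 118600 to 137800 in untreated KO mice. In WT mixed mice it was 165700 to 193800. Of the 8, none was called higher and 1 lower on B6129, 1 and 2 on the mixed background and 3 and 1 on treatment. The part of muscle fibres, regenerating fibres, macrophages, fibroblasts and Schwann cells in the family's changes was not tested. In these bulk samples fewer cells of a type and less RNA per cell cannot be told apart.

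Among the HSP70 genes, Hspa2 rose and Hspa1l fell in KO muscle of both backgrounds, while Hspa8 was not called. Hspa2, best known from its role in male germ cells, had 15.6, 12.5 and 18.2 units in KO B6129 mice, against 7.67, 8.50 and 6.67 in WT B6129 mice (0.96 ± 0.18, limma adjusted p = 0.00107). It had 12.4, 9.64 and 12.4 units in KO mixed mice, against 5.82, 7.20 and 8.29 in WT mixed mice (0.66 ± 0.18, adjusted p = 0.0109). The groups did not overlap on either background; the mixed call was lost without WT animal 7 (0.53, adjusted p = 0.0517). Hspa1l had 25.8, 26.7 and 26.2 units in KO B6129 mice, against 49.2, 48.9 and 47.9 in WT B6129 mice, and 19.9, 31.6 and 22.4 units in KO mixed mice, against 41.3, 37.7 and 55.4 in WT mixed mice. It was lower in every KO library, at -0.88 ± 0.17 and -0.86 ± 0.17 (limma adjusted p = 0.00141 and 0.00151). Because 71.3% of its 61-base windows are shared with the antisense gene Gm10501, and the use of strand in counting is not given in the sources used here, reads of the pair cannot be told apart.

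Hspa8 had 1237, 1682 and 2149 units in KO B6129 mice, against 1603, 1671 and 2271 in WT B6129 mice, and the groups overlapped widely (-0.15 ± 0.23, limma adjusted p = 0.65). The HSP110 genes Hsph1, Hspa4 and Hspa4l lay between -0.10 and 0.11 on B6129 and between -0.098 and 0.33 on the mixed background, none of them called. Hspa12b, the HSP70 relative of endothelial cells, had 9.96, 11.5 and 14.6 units in KO B6129 mice, against 17.9, 17.4 and 24.8 in WT B6129 mice (-0.71 ± 0.17, adjusted p = 0.00496), and 10.5, 13.1 and 10.7 units in KO mixed mice, against 15.8, 19.4 and 18.0 in WT mixed mice (-0.62 ± 0.17, adjusted p = 0.0109). KO and WT mice were separated on both backgrounds. All 4 endothelial markers were called lower in the same KO muscles, with a summed level of 150.1 to 160.2 units in KO B6129 mice, against 236.0 to 281.6 in WT B6129 mice; their part in the Hspa12b result was not tested. Its relative Hspa12a was called higher in KO mixed muscle (0.53 ± 0.20, adjusted p = 0.0485), a call lost without KO animal 14 or 15 or WT animal 7 or 12 (0.40 to 0.55, adjusted p = 0.0865 to 0.165) and without animals 12 and 14 (0.28, adjusted p = 0.378).

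The members that fell on both backgrounds were mostly DnaJ genes, and the cytosolic and nuclear DnaJ class held 5 of the 10. Of its 19 members tested, 5 were lower on each background, 1 was higher on B6129 and none on the mixed background, with class medians of 0.037 and -0.092. These counts were near the 19% and 22.3% of all genes called lower. Dnajc27, a Rab-like GTPase with a J domain, had 107, 109 and 102 units in KO B6129 mice, against 191, 178 and 212 in WT B6129 mice. Dnajc27 on the mixed background had 145, 152 and 159.8 units in treated KO mice, 96.2, 95.0 and 92.3 in untreated KO mice and 159, 173 and 169 in WT mice. Untreated KO libraries lay below 110 units and all other libraries above 140. The KO difference was -0.86 ± 0.069 on B6129 and -0.82 ± 0.069 on the mixed background (limma adjusted p = 1.17e-06 and 2.13e-06), the smallest adjusted p of the family in both comparisons.

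Dnajc13, an endosomal DnaJ protein that helps sort membrane cargo, had 33.2, 36.0 and 31.6 units in KO B6129 mice, against 58.7, 50.7 and 56.4 in WT B6129 mice. Its level on the mixed background was 57.6, 56.5 and 59.3 units in treated KO mice, 31.5, 34.4 and 32.1 in untreated KO mice and 52.5, 54.5 and 54.0 in WT mice. As with Dnajc27, untreated KO libraries did not overlap the others, and the KO difference was -0.71 ± 0.072 and -0.71 ± 0.072 (limma adjusted p = 8.80e-06 and 7.69e-06). Dnajb5, a muscle-rich HSP40 tied to redox control of the histone deacetylase HDAC4, had 183, 175 and 169 units in KO B6129 mice, against 252, 250.0 and 243 in WT B6129 mice (-0.50 ± 0.14, adjusted p = 0.0108). On the mixed background it had 314, 416 and 271 units in treated KO mice, 152, 168 and 168 in untreated KO mice and 262, 250.0 and 339.7 in WT mice, so that the highest library was a treated one and the untreated KO libraries were the lowest (-0.79 ± 0.14 in KO against WT, adjusted p = 0.000479). Dnajc21, which takes part in the maturation of the large ribosomal subunit, was lower at -0.47 ± 0.083 and -0.55 ± 0.083, and Dnaja2, a main cytosolic HSP40, at -0.29 ± 0.081 and -0.42 ± 0.081. The Dnaja2 call on B6129 was lost without WT animal 4 (-0.21, adjusted p = 0.0674).

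**Figure D4:**
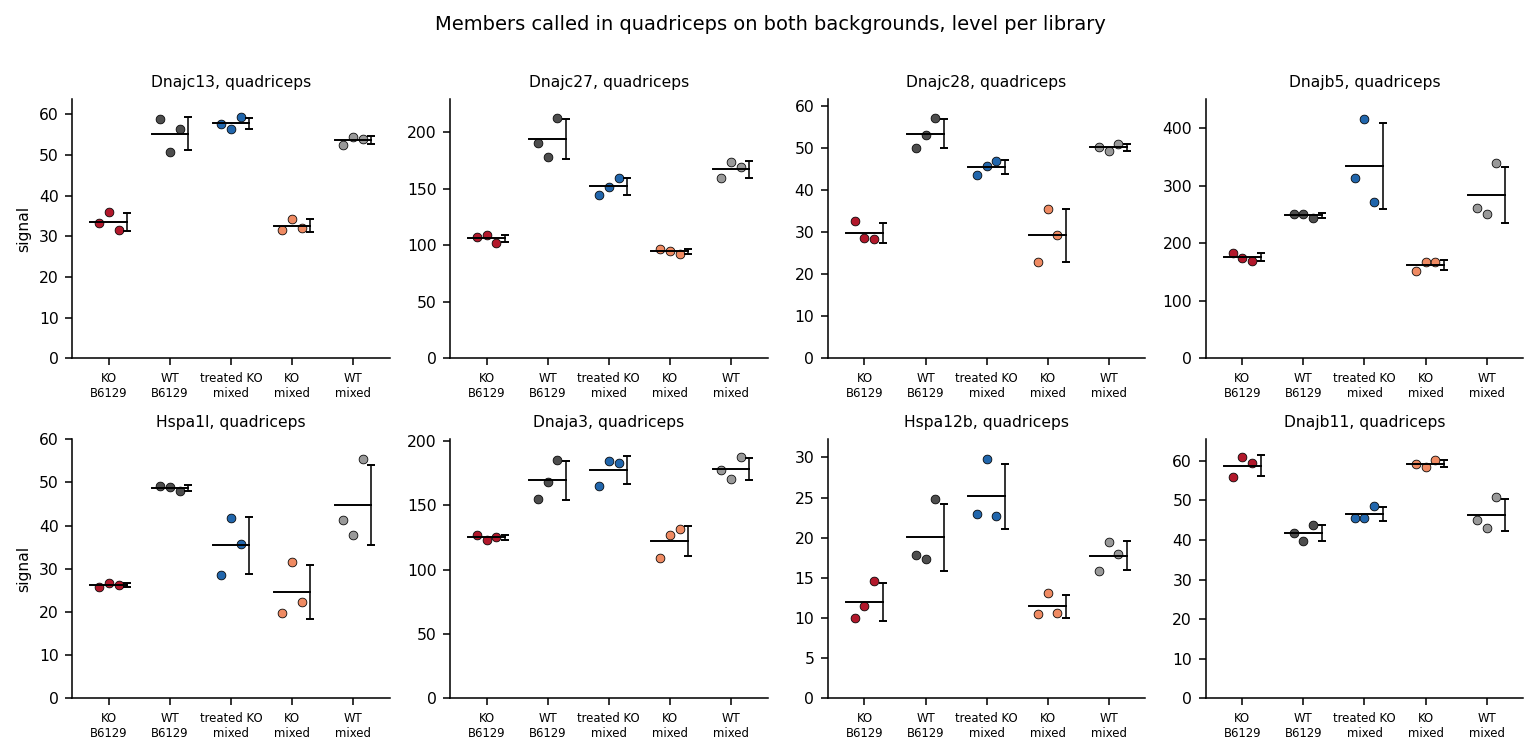
Quadriceps level of 8 members in each library (points) with group means (lines) and SD (bars), in normalised signal. Untreated KO libraries of both backgrounds lie below the WT libraries for Dnajc13, Dnajc27, Dnajc28, Dnajb5, Hspa1l, Dnaja3 and Hspa12b and above them for Dnajb11, and the treated KO libraries lie clear of the untreated KO libraries in every panel but that of Hspa1l.

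The mitochondrial members called in KO muscle were all lower. On B6129 4 of 10 were called lower and none higher (class median -0.23), and on the mixed background 5 of 10 were called lower and none higher (median -0.30), where 19% and 22.3% of all genes were called lower. Mitochondrial reads took 13.2% to 16.2% of KO B6129 quadriceps libraries, against 17.3% to 21.1% of WT B6129 libraries, without overlap. Mixed-background libraries had 15.0% to 17.0% in treated KO mice, 14.7% to 18.3% in untreated KO mice and 16.8% to 18.0% in WT mice, with overlap. Their part in the results of the mitochondrial members was not tested. Dnajc28 is a little-studied mitochondrial DnaJ protein. It had 32.6, 28.6 and 28.3 units in KO B6129 mice, against 50.0, 53.1 and 57.0 in WT B6129 mice, and 23.0, 35.5 and 29.3 units in KO mixed mice, against 50.3, 49.3 and 50.9 in WT mixed mice. The groups did not overlap, and the differences were -0.83 ± 0.12 and -0.79 ± 0.12 (limma adjusted p = 0.000158 and 0.000208). Dnaja3, the mitochondrial partner of mortalin, had 127, 123 and 126 units in KO B6129 mice, against 155, 168 and 185 in WT B6129 mice (-0.43 ± 0.082, adjusted p = 0.00116), and differed by -0.54 ± 0.082 on the mixed background (adjusted p = 0.000185). Hspa9 had 620.0, 649.8 and 606 units in KO B6129 mice, against 704, 823 and 921 in WT B6129 mice; the difference of -0.38 ± 0.11 (adjusted p = 0.0199) lost its call without KO animal 1 or 3 or WT animal 5 or 6 (-0.28 to -0.37, adjusted p = 0.0512 to 0.092), and the mixed difference of -0.28 ± 0.11 was not called (adjusted p = 0.0651). Dnajc11, which belongs to the complex that shapes the cristae, was lower at -0.23 ± 0.076 and -0.38 ± 0.076. Dnajc15 and Dnajc30 were called lower on the mixed background alone, at -0.33 ± 0.12 and -0.33 ± 0.11, and both calls were lost without animals 12 and 14 (-0.24 and -0.26, adjusted p = 0.0707 and 0.124). The mitochondrial chaperonin genes Hspd1 and Hspe1 were not called on either background (-0.36 ± 0.16 and -0.27 ± 0.16 for Hspd1, 0.033 ± 0.20 and 0.13 ± 0.20 for Hspe1).

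Of the 13 ER members 2 were called higher and none lower on B6129, and 3 higher and 1 lower on the mixed background. The class medians were -0.056 and 0.11, and the counts of higher members were near the 16.7% and 17.1% of all genes called higher. Dnajb11, a luminal cochaperone of BiP, was called on both. It had 55.9, 60.9 and 59.5 units in KO B6129 mice, against 41.8, 39.7 and 43.8 in WT B6129 mice. Dnajb11 on the mixed background had 45.6, 45.5 and 48.6 units in treated KO mice, 59.1, 58.5 and 60.3 in untreated KO mice and 45.1, 43.0 and 50.9 in WT mice. No untreated KO library overlapped the other groups, and the KO difference was 0.49 ± 0.072 and 0.36 ± 0.072 (limma adjusted p = 0.000171 and 0.00155). Hspa5 had 235, 258 and 233 units in KO B6129 mice, against 194, 205 and 263 in WT B6129 mice, and 291, 359 and 291 units in KO mixed mice, against 207, 199 and 401 in WT mixed mice, with overlap on both backgrounds (0.14 ± 0.21 and 0.29 ± 0.21, adjusted p = 0.625 and 0.28). The highest WT mixed library was that of animal 12, and without animals 12 and 14 Hspa5 was called higher in KO mixed muscle (0.52, adjusted p = 0.00503). The unfolded protein response genes Dnajb9 and Dnajc3 were not called either (0.19 and -0.16 on B6129, 0.11 and 0.056 on the mixed background), but without animals 12 and 14 Dnajb9 was called higher on the mixed background (0.41, adjusted p = 0.0393). Dnajb12, an ER membrane DnaJ protein of protein degradation, was lower in KO mixed mice, with 50.0, 47.0 and 61.1 units against 80.0, 73.1 and 76.0 in WT mixed mice (-0.54 ± 0.090, adjusted p = 0.000411), and was not called on B6129 (-0.081 ± 0.090, adjusted p = 0.52).

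The KO effects of the backgrounds were also compared directly. No member was called for a difference between the mixed and the B6129 effect in limma, where 0.283% of all genes were, nor in edgeR's quasi-likelihood test; 5 of 62 had an unadjusted p under 0.05. Likewise no member differed between WT mixed and WT B6129 quadriceps (2.57% of all genes called; 5 members at an unadjusted p under 0.05 and none in edgeR). Members called on only 1 background were therefore not shown to differ between backgrounds.

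The stress-inducible HSP70 genes Hspa1a and Hspa1b spread widely between animals of 1 group. In quadriceps Hspa1a had 79.0, 30.8 and 20.7 units in KO B6129 mice, against 13.6, 9.13 and 20.3 in WT B6129 mice. On the mixed background it had 22.2, 20.4 and 4.89 units in treated KO mice, 38.6, 205 and 19.8 in untreated KO mice and 20.8, 20.0 and 305 in WT mice. The highest libraries were those of WT animal 12 and KO animal 14, and groups overlapped on the mixed background. Hspa1b followed the same animals, with 43.8, 274 and 21.3 units in KO mixed mice and 17.0, 16.0 and 337 in WT mixed mice. Neither gene was called in quadriceps: the KO differences were 1.41 ± 1.02 and 0.098 ± 1.02 for Hspa1a (limma adjusted p = 0.308 and 0.95) and 1.64 ± 1.10 and 0.48 ± 1.10 for Hspa1b. Their mixed values changed sign in edgeR, to -0.39 and -0.12. Without animals 12 and 14 they were 0.43 and 0.87 (adjusted p = 0.674 and 0.359).

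Other inducible members were high in the same muscles. Dnajb1 had 64.1 units in WT animal 12 and 67.3 units in KO animal 14, while the other 13 quadriceps libraries had 7.75 to 26.8 units. Dnaja4 had 494 units in WT animal 12, and 102 to 219 units in the other libraries. Dnaja4 shares 51.7% of its 61-base windows with Wdr61, so that the split of reads between them is uncertain. In the cord of the same animals Hspa1a had 7.63 units in WT animal 12, inside the range of the WT group, and 84.2 units in KO animal 14, the highest of all cord libraries. Hspa1a was thus high in both tissues of KO animal 14 and in the muscle but not the cord of WT animal 12. Other genes were high in the cord of animal 12: Hsph1 had 270.1 units there and 162 to 246 units in the other 14 cords, and the HSP90 gene Hsp90aa1 had 1313 and 766 to 1202 units. In the cord of animal 12, 53.1% of the members were the highest of their group, against 38.5% of all genes, and in that of animal 14 the shares were 42.2% and 33.0%. What set these animals apart was not tested.

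**Figure D5:**
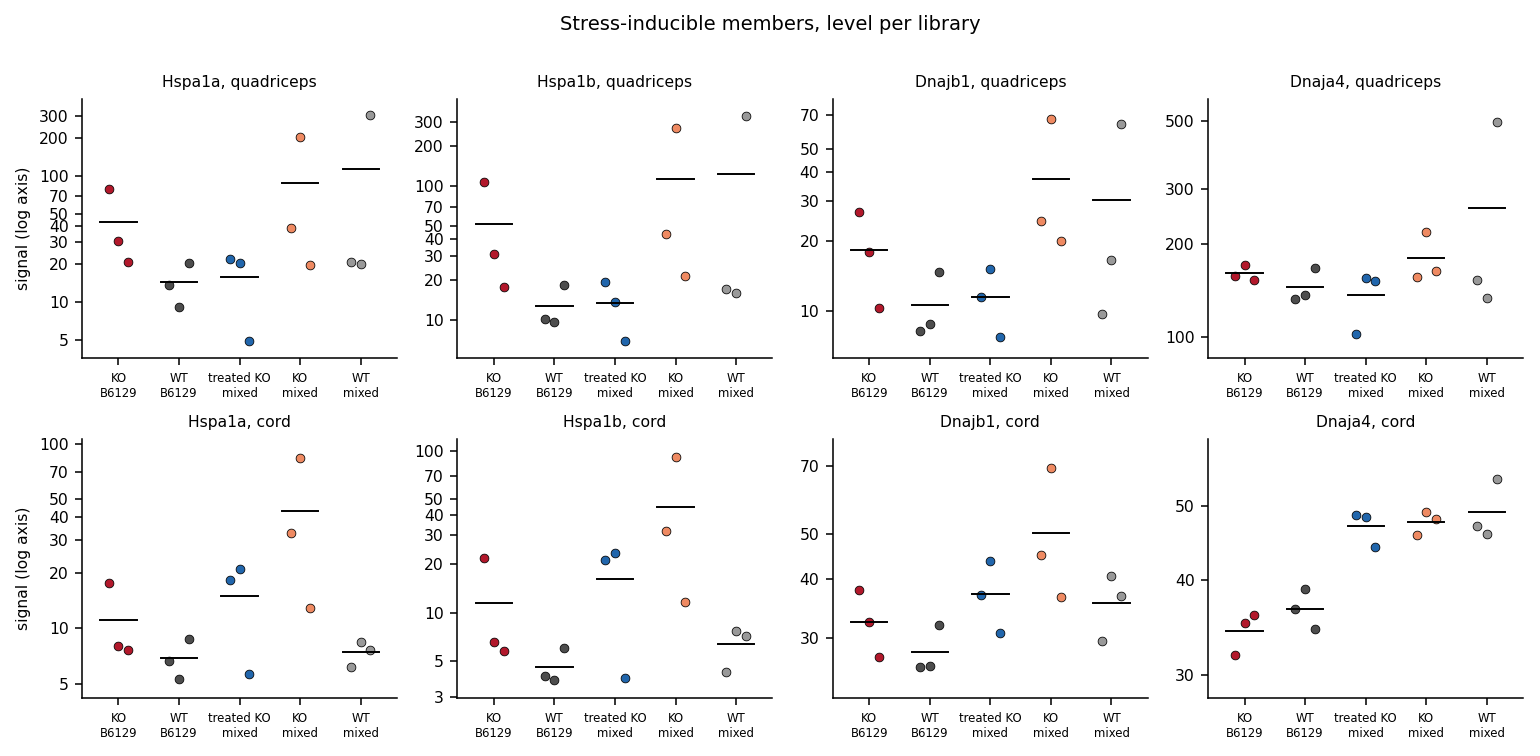
Level of Hspa1a, Hspa1b, Dnajb1 and Dnaja4 in each library of quadriceps and cord (points, normalised signal on a log axis) with the group mean as a line. Single animals lie far above their group: WT mixed animal 12 in quadriceps, with 305 units of Hspa1a, and KO mixed animal 14 in both tissues, with 205 and 84.2 units.

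Hspa1a and Hspa1b lie next to each other on chromosome 17 and share 56% of the 61-base windows of Hspa1a, so that the split of reads between them is uncertain. The 150 bases before their transcription starts are shown because both genes were high in the same animals; they are given with those of Hspb1, Hspa5 and Hspb7, which represent a further inducible gene, an ER stress gene and the small heat shock protein with the largest change. The sequences are RefSeq's on GRCm38.p6, from 5′ to 3′ on the gene's strand: chr17:34972157-34972306 on the minus strand for Hspa1a, chr17:34959239-34959388 on the minus strand for Hspa1b, chr5:135887769-135887918 on the plus strand for Hspb1, chr2:34771940-34772089 on the plus strand for Hspa5 and chr4:141420629-141420778 on the plus strand for Hspb7. Capitals mark matches, on either strand, to a pair of facing heat shock units (GAANNTTC or TTCNNGAA) or, in Hspa5, to the ER stress element (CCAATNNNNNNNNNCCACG or its complement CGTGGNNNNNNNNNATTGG). The windows of Hspa1a and Hspa1b differed at 1 of 150 positions.
Hspa1a: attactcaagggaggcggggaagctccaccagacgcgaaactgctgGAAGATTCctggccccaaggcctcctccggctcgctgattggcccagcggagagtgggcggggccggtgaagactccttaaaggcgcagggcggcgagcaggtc
Hspa1b: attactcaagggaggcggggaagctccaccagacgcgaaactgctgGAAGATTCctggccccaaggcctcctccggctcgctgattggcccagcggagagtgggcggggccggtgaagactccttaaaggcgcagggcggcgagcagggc
Hspb1: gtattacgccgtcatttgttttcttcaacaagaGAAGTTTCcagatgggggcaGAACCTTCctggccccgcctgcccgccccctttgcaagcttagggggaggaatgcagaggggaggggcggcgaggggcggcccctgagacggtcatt
Hspa5: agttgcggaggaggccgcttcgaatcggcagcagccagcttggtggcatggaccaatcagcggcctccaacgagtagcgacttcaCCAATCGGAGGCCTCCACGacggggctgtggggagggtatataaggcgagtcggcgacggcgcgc
Hspb7: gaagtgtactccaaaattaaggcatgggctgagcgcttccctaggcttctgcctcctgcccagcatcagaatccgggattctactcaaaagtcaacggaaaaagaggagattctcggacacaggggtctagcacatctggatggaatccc

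The match of Hspa1a and Hspa1b began 104 bases before the transcription start, those of Hspb1 117 and 97 bases before it and that of Hspa5 65 bases before it. Hspb7 held no match in this window, and neither did Hspb8. Of the other inducible genes high in the same muscles, Dnaja4 held the facing pair within 250 bases. Dnajb1 did not hold it in either of its 2 windows of that length. Windows of 250 bases before the start were available for 55 of the 65 members. Of these 55, 14 (25.5%) held the facing pair on either strand, against 12.8% of all 32851 promoter windows and 14.6% of the 27025 genes. A row of 3 units (GAANNTTCNNGAA or TTCNNGAANNTTC), which contains the facing pair, was held by Dnajb6, Hspd1 and Hspe1 and by 0.466% of all windows. The ER stress element was held by Hspa5 and Dnajc3 and by 0.113% of all windows. These matches describe letters only.

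Treatment with the secreted GAA vector was tested in quadriceps against untreated KO mice. Treated KO mice had 13 members higher and 10 lower than untreated KO mice, of 62 tested, where 23.6% and 17.1% of all genes were called higher and lower; the median was -0.096 for the members and 0.046 for all genes. The split of calls moved with the scaling, to 10 higher and 18 lower after quantile normalization and to 11 higher and 13 lower in edgeR. This comparison shares the untreated KO libraries with the KO against WT comparison on the mixed background, so their opposite signs are not independent of each other. With the B6129 comparison it shares no library. Of the 11 members lower in KO B6129 muscle, 10 were higher in treated than in untreated KO muscle (90.9% of the B6129 list and 76.9% of the treatment list), and of the 8 members higher in KO B6129 muscle 5 were lower on treatment (62.5% and 50%). Over all genes the shares were 72% and 58.2% for those lower in KO B6129 muscle and higher on treatment, and 65.3% and 63.9% for those higher in KO B6129 muscle and lower on treatment. Without animals 12 and 14 the treatment counts were 12 higher and 11 lower.

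Hspb7 showed the largest called decrease, at -1.36 ± 0.37 (limma adjusted p = 0.00919), with the levels given above. Hspb8 had 586, 341 and 407 units in treated KO mice, against 794, 707 and 788 in untreated KO mice. These groups did not overlap (-0.81 ± 0.24, adjusted p = 0.0154), and the call was lost without treated KO animal 9 (-0.64, adjusted p = 0.07). Hspb3 was lower at -0.53 ± 0.14 (adjusted p = 0.00895), while Hspb2 differed by -0.088 ± 0.092 and was not called (adjusted p = 0.478). Hspa2 was lower at -0.62 ± 0.18, a call lost without untreated KO animal 13 or 15 or treated KO animal 8 (-0.46 to -0.56, adjusted p = 0.0506 to 0.0675).

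Dnaja1, a main cytosolic HSP40, was lower in treated muscle without having been called in either KO comparison. It had 81.1, 65.4 and 57.0 units in treated KO mice, against 110.5, 209 and 96.1 in untreated KO mice and 70.6, 92.0 and 138 in WT mice. Treated libraries lay below all untreated KO libraries and overlapped WT (-0.95 ± 0.28 against untreated KO, limma adjusted p = 0.0143). The call was lost without untreated KO animal 14 or treated KO animal 10 (-0.62 to -0.84, adjusted p = 0.0561 to 0.0657). Dnajc24, a DnaJ protein of diphthamide synthesis (-0.42 ± 0.15), the ribosome-associated Dnajc2 (-0.31 ± 0.078), the mitochondrial import gene Dnajc19 (-0.25 ± 0.079) and Dnajc14 (-0.21 ± 0.075) were lower as well. Of these, the Dnajc24 call was lost without untreated KO animal 13 or 14 or treated KO animal 9 or 10 (-0.29 to -0.41, adjusted p = 0.0809 to 0.147), the Dnajc19 call without untreated KO animal 14 or 15 or treated KO animal 8 or 10 (-0.19 to -0.24, adjusted p = 0.063 to 0.0973) and the Dnajc14 call without untreated KO animal 13 or 15 or treated KO animal 9 or 10 (-0.16 to -0.23, adjusted p = 0.0523 to 0.137). Hspa1a and Hspa1b had the largest differences of the family and were not called (-2.00 ± 1.02 and -2.33 ± 1.10, adjusted p = 0.137 and 0.108); without animals 12 and 14 they were -1.04 and -1.28 (adjusted p = 0.222 and 0.129). With all libraries 3 further members were not called: Hspb1 (-0.82 ± 0.46, adjusted p = 0.176), Hspa5 (-0.48 ± 0.21, adjusted p = 0.082) and the HSP40 gene Dnajb4 (-0.69 ± 0.27, adjusted p = 0.0565). Without animals 12 and 14 they were called lower, at -0.69, -0.37 and -0.53 (adjusted p = 0.0178, 0.0151 and 0.0165). The calls of Dnajc17, Dnajc19 and Dnajc24 were lost without these animals (0.36, -0.19 and -0.41, adjusted p = 0.0743, 0.0961 and 0.0815).

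The largest called increases on treatment were those of Hspa12b and Dnajb5. Hspa12b had 22.9, 29.8 and 22.7 units in treated KO mice, against 10.5, 13.1 and 10.7 in untreated KO mice (1.10 ± 0.17, limma adjusted p = 0.000174), and all treated libraries lay above the WT libraries as well. The endothelial markers summed to 239.6 to 352.6 units in treated KO mice, 113.0 to 161.8 in untreated KO mice and 214.3 to 242.6 in WT mice, and all 4 were called higher on treatment. Dnajb5 rose by 1.02 ± 0.14, Dnajc13 by 0.82 ± 0.072, Dnajb12 by 0.75 ± 0.090, Dnajc27 by 0.68 ± 0.069 and Dnajc28 by 0.65 ± 0.12 (adjusted p between 2.01e-06 and 0.000771). Dnajc21, Dnaja3 and Hspa1l rose by 0.53 to 0.54 and Dnajc17 by 0.35 ± 0.13. The Dnajc17 call was lost without untreated KO animal 13 or 14 or 15 or treated KO animal 8 or 10 (0.28 to 0.37, adjusted p = 0.0654 to 0.145), and the Hspa1l call was lost without untreated KO animal 13 or 15 or treated KO animal 9 or 10 (0.39 to 0.51, adjusted p = 0.0645 to 0.116).

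Against WT mice, treated KO muscle had 1 member higher and 1 lower, where 2.98% of all genes were called in either direction, and 9 of 62 members had an unadjusted p under 0.05. The medians were -0.073 for the members and 0.016 for all genes. Dnajc16, a DnaJ protein of the ER membrane, had 41.4, 37.7 and 37.4 units in treated KO mice, against 28.1, 29.1 and 27.6 in WT mice (0.45 ± 0.079, limma adjusted p = 0.0146). Treated libraries lay above those of WT and of untreated KO mice. Dnajc15, an inner mitochondrial membrane protein that restrains respiratory complex I, had 55.7, 52.9 and 57.6 units in treated KO mice, against 71.9, 74.6 and 101 in WT mice (-0.55 ± 0.12, adjusted p = 0.0267). The groups did not overlap, and the call was lost without treated KO animal 9 or 10 or WT animal 12 (-0.40 to -0.58, adjusted p = 0.0548 to 0.0953). Without animal 12 the numbers of members higher and lower were 1 and 0. No call does not show that a member was back at its WT level.

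In cord Hspb1 was higher in KO mice of both backgrounds. In KO B6129 cord 1 of 64 members was called, where 1.16% of all genes were, and 8 members had an unadjusted p under 0.05. That member was Hspb1, with 25.1, 25.3 and 27.2 units in KO B6129 mice, against 16.5, 17.4 and 18.1 in WT B6129 mice (0.56 ± 0.074, limma adjusted p = 0.00102). Hspb1 on the mixed background had 49.3, 58.0 and 53.0 units in treated KO mice, 53.5, 63.1 and 54.9 in untreated KO mice and 32.0, 36.1 and 34.4 in WT mice. KO libraries, treated or not, did not overlap WT libraries on either background (0.73 ± 0.074 in untreated KO against WT, adjusted p = 5.12e-05).

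In KO mixed cord 4 members were higher and 6 lower than in WT mixed cord, where 7.16% and 5.85% of all genes were called, with medians of -0.048 for the members and -0.0067 for all genes. Hspb8 had 74.3, 81.8 and 86.4 units in treated KO mice, 71.0, 68.3 and 76.0 in untreated KO mice and 54.0, 58.0 and 47.1 in WT mice. Both KO groups lay above WT, with a difference of 0.44 ± 0.081 in untreated mice (limma adjusted p = 0.00449). Hspa1a had 18.2, 20.8 and 5.65 units in treated KO mice, 33.0, 84.2 and 12.8 in untreated KO mice and 6.13, 8.43 and 7.63 in WT mice. Hspa1b lay at 21.1, 23.4 and 3.96 units in treated KO mice, 32.0, 91.7 and 11.6 in untreated KO mice and 4.30, 7.74 and 7.22 in WT mice. Untreated KO libraries lay above WT libraries but spanned a wide range (2.10 ± 0.56, adjusted p = 0.0261, and 2.30 ± 0.71, adjusted p = 0.0459). The Hspa1a call was lost without KO animal 13 or 14 or WT animal 7 or 12 (1.43 to 2.13, adjusted p = 0.0683 to 0.0852), and the Hspa1b call without KO animal 13 or 14 or WT animal 7 or 11 or 12 (1.56 to 2.44, adjusted p = 0.0667 to 0.154). Bag3, whose product is the partner of HSPB8, was also higher in these cords (0.33 ± 0.077, adjusted p = 0.0154), a call lost without KO animal 14 or WT animal 7 (0.25 to 0.26, adjusted p = 0.0516 to 0.054).

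Members lower in KO mixed cord changed by small amounts. Dnajc15 had 50.8, 56.5 and 59.5 units in KO mixed mice, against 68.0, 69.0 and 75.3 in WT mixed mice (-0.35 ± 0.061, limma adjusted p = 0.00314), without overlap. Dnajc27 had 106, 102 and 107 units in KO mixed mice, against 132, 121 and 130.1 in WT mixed mice (-0.28 ± 0.054, adjusted p = 0.00574), also without overlap. Dnajc6, the neuronal auxilin that uncoats clathrin vesicles, differed by -0.28 ± 0.073 and Dnajc5 by -0.19 ± 0.054; the Dnajc6 call was lost without KO animal 14 or 15 or WT animal 12 (-0.21 to -0.29, adjusted p = 0.0512 to 0.102) and the Dnajc5 call without KO animal 13 or 14 or WT animal 7 or 12 (-0.15 to -0.19, adjusted p = 0.0721 to 0.131). Dnajc21 at -0.20 ± 0.061 and Dnajc11 at -0.13 ± 0.041 also lost their calls, Dnajc21 without any 1 of 5 libraries and Dnajc11 without any 1 of 6 (Dnajc21 without KO animal 13 or 14 or 15 or WT animal 7 or 12 (-0.16 to -0.23, adjusted p = 0.0522 to 0.172); Dnajc11 without KO animal 13 or 14 or 15 or WT animal 7 or 11 or 12 (-0.11 to -0.15, adjusted p = 0.0605 to 0.15)). Without 1 library the number of members called ran from 5 to 9, and it was 6 after quantile normalization.

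Markers of glia and macrophages were also higher in these cords. The 4 astrocyte markers summed to 3231 to 3592 units in KO B6129 cord, against 2056 to 2388 in WT B6129 cord, and to 3709 to 4639 units in treated KO mice, 3793 to 4125 in untreated KO mice and 2011 to 2215 in WT mice on the mixed background. Of the 4, 2 were called higher on each background in untreated KO mice and 3 in treated KO mice against WT. The 4 microglial markers summed to 73.7 to 84.7 units in KO B6129 mice, against 45.7 to 50.8 in WT B6129 mice, and to 72.1 to 92.6 units in treated KO mice, 86.7 to 90.1 in untreated KO mice and 48.0 to 51.3 in WT mice on the mixed background. Of these, 2 were called higher in KO B6129 mice and 4 in both KO mixed groups against WT. The 6 macrophage markers summed to 239.3 to 242.3 units in KO B6129 mice, against 101.4 to 105.1 in WT B6129 mice, and to 137.7 to 204.8 units in treated KO mice, 213.4 to 238.2 in untreated KO mice and 93.2 to 116.2 in WT mice on the mixed background; 5 of the 6 were called higher against WT in each of the 3 KO groups. Of 4 endothelial markers 3 were higher in untreated KO mixed cord than in WT cord and 2 in treated KO cord, summing to 44.6 to 51.2 units in treated KO mice, 47.4 to 56.9 in untreated KO mice and 32.9 to 36.1 in WT mice. Of 4 oligodendrocyte markers 3 were called higher than in WT cord in treated and 1 in untreated KO mixed mice. Of 4 neuron markers 1 was called lower in untreated KO mixed cord than in WT cord. None was called in KO B6129 cord or in treated KO cord against WT. No marker of these lists was at 0 in any cord library, and their part in the family's results in cord was not tested.

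Treated and untreated KO cord were not separated by any member: none of 64 was called between treated and untreated KO mice in limma, where 0% of all genes were, and none in edgeR, where 2 genes in all were, while 6 members had an unadjusted p under 0.05. Against WT cord, treated KO cord had higher Hspb1 and Hspb8 and lower levels of 2 HSP110 genes. There 4 members were higher and 11 lower, where 8.81% and 7.95% of all genes were called, with medians of -0.020 for the members and -0.0031 for all genes. Hspb1 (0.64 ± 0.074, limma adjusted p = 0.000221) and Hspb8 (0.61 ± 0.081, adjusted p = 0.000525) were the members with the largest increases, followed by Hspa13, an HSP70 relative of the microsomes, at 0.28 ± 0.069 and Dnajc3 at 0.24 ± 0.064. Members lower included Dnajc27 at -0.37 ± 0.054, Dnajc15 at -0.36 ± 0.061, the HSP110 genes Hspa4l at -0.31 ± 0.083 and Hspa4 at -0.27 ± 0.067, Hspa12a at -0.28 ± 0.088, Dnajc6 at -0.28 ± 0.073, Dnajc11 at -0.27 ± 0.041 and Dnajc5 at -0.24 ± 0.054. Dnajc7 (-0.21 ± 0.039), Dnaja3 (-0.19 ± 0.054) and Dnajb6 (-0.17 ± 0.052) completed the list. The Dnajc3 call was lost without treated KO animal 8 or WT animal 7 or 11 (0.19 to 0.23, adjusted p = 0.0553 to 0.0765), and the Dnaja3 call without treated KO animal 8 or 9 or 10 or WT animal 7 or 12 (-0.16 to -0.20, adjusted p = 0.0524 to 0.103). The Hspa12a call was lost without treated KO animal 9 or 10 or WT animal 12 (-0.20 to -0.27, adjusted p = 0.1 to 0.173), and the Dnajc6 call without treated KO animal 9 or 10 or WT animal 12 (-0.20 to -0.28, adjusted p = 0.0512 to 0.0849). The Hspa4l call was lost without treated KO animal 9 or 10 or WT animal 12 (-0.22 to -0.31, adjusted p = 0.0558 to 0.0991), and the Hspa4 call without treated KO animal 10 or WT animal 12 (-0.20 to -0.22, adjusted p = 0.0638 to 0.0724). This comparison shares the WT mixed libraries with the untreated one.

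WT cords of the backgrounds differed in most of all genes tested, and in a similar share of the family. Background and series cannot be told apart in this comparison either. Between WT mixed and WT B6129 cord 31 members were higher and 16 lower, which was 73.4% of the 64 tested, where 66.8% of all genes were called. The median was 0.21 for the members and -0.021 for all genes. Mitochondrial reads took 13.2% to 17.1% of the cord libraries on the mixed background and 6.99% to 7.70% on B6129. All 4 endothelial markers were lower in WT mixed cord, with summed levels of 32.9 to 36.1 units in WT mixed mice, against 85.4 to 96.9 in WT B6129 mice. All 4 blood markers were lower as well (105.5 to 199.7 units against 483.2 to 718.4), while 3 of 4 oligodendrocyte markers were higher and 1 lower (20600 to 28700 units against 12580 to 13280). None of these 12 markers was at 0 in any cord library. Of 4 neuron markers 2 were higher and 1 lower in WT mixed cord, with sums of 2713 to 3195 units against 1849 to 1896. Of 8 muscle fibre markers 2 were higher and none lower. No marker of either list was at 0 in any cord library. The part of mitochondrial reads and of these cell types in the differences between backgrounds was not tested. Hspe1, the HSP10 cochaperonin, had 88.4, 80.1 and 97.0 units in WT mixed cord, against 36.0, 40.4 and 41.2 in WT B6129 cord (1.16 ± 0.094, limma adjusted p = 5.76e-08), without overlap. Hspb1 was higher by 0.96 ± 0.074, Hspb8 by 0.75 ± 0.081 and Dnajb6, a suppressor of protein aggregation, by 0.73 ± 0.052; Hspa1l was lower at -1.34 ± 0.18, Dnajc13 at -1.05 ± 0.078 and Dnajc16 at -0.87 ± 0.083. Dnajc19 at 0.89 ± 0.10 and Hspb11 at 0.87 ± 0.15 were further members higher, and Hspa12a at -0.61 ± 0.088, Dnajc6 at -0.57 ± 0.073 and Dnajb5 at -0.52 ± 0.059 further members lower. Hspe1 shares 36.8% and Dnajb6 41.25% of its 61-base windows with other genes, so that the split of their reads is uncertain. By class, 8 of 10 mitochondrial members were higher and none lower, 13 of 22 cytosolic DnaJ members were higher and 4 lower, and 5 of 13 ER members were higher and 7 lower, where 32.3% and 34.5% of all genes were called higher and lower. The KO effect on cord itself was not called different between backgrounds for any member in limma (0.524% of all genes called; 2 members, Hspa8 and Dnajc15, at an unadjusted p under 0.05; none in edgeR).

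Quadriceps and cord of the same animals were compared directly for their KO and treatment effects. The KO effect on B6129 was called higher in quadriceps than in cord for 5 of 61 members and lower for 8, where 25.4% of all genes were called in either direction. On the mixed background 4 were higher and 11 lower, where 32.3% of genes were called. The treatment effect was called higher in quadriceps for 11 and lower for 7, where 33.6% of genes were called. After quantile normalization the mixed KO counts were 5 and 6 and the treatment counts 9 and 9. The KO effect on Hspb7 was 1.79 in quadriceps and -0.29 in cord on B6129 (2.08 ± 0.68 for the difference, limma adjusted p = 0.0263), with cord levels of 1.59, 1.33 and 0.715 units in KO mice and 3.30, 1.68 and 0.527 in WT mice. The call was lost without cord of KO animal 3 or cord of WT animal 4 or 5 or quadriceps of KO animal 2 or quadriceps of WT animal 4 (1.63 to 2.03, adjusted p = 0.0506 to 0.0923). The KO effect on Dnajc13 was -0.71 in quadriceps and 0.085 in cord on B6129, and -0.71 and 0.23 on the mixed background. The differences of -0.79 ± 0.10 and -0.94 ± 0.10 were both called. The treatment effect on Hspb8 was -0.81 in quadriceps and 0.17 in cord (-0.98 ± 0.27 for the difference, adjusted p = 0.00659). Hspb1, called in cord but not in quadriceps, was not shown to differ between tissues (0.35 ± 0.50, adjusted p = 0.664, and -0.83 ± 0.50, adjusted p = 0.215).

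Lists of partner genes were read in the same quadriceps fits, where the calls over all genes were 16.7% higher and 19% lower in KO B6129 muscle, 17.1% and 22.3% in KO mixed muscle and 23.6% and 17.1% on treatment, and the medians of all genes were -0.025, -0.035 and 0.046. The lists were chosen with earlier results of these data known, so their counts and medians are descriptions and not independent tests. Of 19 tested genes of ER stress and folding, 10 were higher and none lower in KO B6129 quadriceps, and 13 were higher and 2 lower in KO mixed quadriceps. On treatment 1 was higher and 12 lower. The list medians were 0.44, 0.50 and -0.63. Canx, the lectin chaperone calnexin, differed by 0.57 ± 0.085, 0.57 ± 0.085 and -0.63 ± 0.085 in these comparisons, and Xbp1, a transcription factor of the unfolded protein response, by 0.81 ± 0.15 in KO B6129 muscle and -0.76 ± 0.15 on treatment (limma adjusted p at most 0.00108). Of 12 genes of mitochondrial protein import and folding, 6 were lower and none higher on each background, and on treatment 3 were higher and 2 lower, with list medians of -0.20, -0.21 and 0.064. Trap1, the mitochondrial HSP90, differed by -0.56 ± 0.078, -0.61 ± 0.078 and 0.53 ± 0.078.

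Hsf1, which encodes heat shock factor 1, was lower in KO muscle and higher on treatment. It had 46.1, 46.8 and 45.7 units in KO B6129 mice, against 56.1, 51.3 and 52.4 in WT B6129 mice, and 65.4, 58.1 and 58.9 units in treated KO mice, 31.0, 31.7 and 34.3 in untreated KO mice and 53.9, 50.4 and 53.5 in WT mice on the mixed background. No untreated KO library overlapped the others (-0.20 ± 0.068, -0.69 ± 0.068 and 0.90 ± 0.068, limma adjusted p = 0.032, 5.86e-06 and 7.87e-07). The B6129 call of Hsf1 was lost without KO animal 1 or 2 or 3 or WT animal 4 or 6 (-0.17 to -0.21, adjusted p = 0.0585 to 0.121). In the whole list of 6 tested heat shock factor genes 3 were higher and 1 lower on each background, and 1 was higher and 4 lower on treatment, with list medians of 0.38, 0.25 and -0.33. Among 20 genes of cytosolic HSP90 and its cochaperones 4 were higher and 2 lower on B6129. On the mixed background 3 were higher and 5 lower, and on treatment 5 higher and 5 lower. The list medians of 0.014, -0.084 and 0.0075 were near those of all genes. Hsp90aa1, the inducible HSP90, fell on treatment by 1.57 ± 0.41 on the log2 scale (limma adjusted p = 0.00789). It had 90.7, 73.65 and 71.99 units in treated KO mice, against 167, 455.7 and 167.8 in untreated KO mice. These groups did not overlap, but the size of the fall depended on the high library of KO animal 14. Cryab, the alpha-B crystallin gene next to Hspb2, had 1194, 1558 and 1589 units in KO B6129 mice, against 693, 799 and 1031 in WT B6129 mice, a difference just short of a call (0.79 ± 0.30, adjusted p = 0.0554; 0.79 ± 0.30, adjusted p = 0.0531 on the mixed background), and was lower on treatment at -0.96 ± 0.30 (adjusted p = 0.0213). The treatment call of Cryab was lost without untreated KO animal 14 or treated KO animal 8 (-0.76 to -0.87, adjusted p = 0.067 to 0.0849), and without animals 12 and 14 its mixed KO difference was 1.15 (adjusted p = 0.0022). None of the 8 TRiC chaperonin genes was called in either KO comparison and 2 were lower on treatment, with list medians of 0.087, 0.11 and -0.12. Of 10 genes of nucleotide exchange and BAG proteins, 2 were higher and 1 lower on B6129, 2 higher and 3 lower on the mixed background, and 2 higher and 2 lower on treatment, with list medians of 0.021, -0.20 and -0.0023. Bag3 was not called in the KO comparisons (0.17 ± 0.26 and -0.27 ± 0.26). Stub1, whose product CHIP is the ubiquitin ligase that works with HSP70, was not called in quadriceps and was lower in treated KO cord than in WT cord, at -0.21 ± 0.044 (adjusted p = 0.00607).

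With all libraries, 31 of the 62 members tested in quadriceps were not called in any of the KO and treatment comparisons and 37 in neither KO comparison. Of all genes 35.8% were called in KO B6129 muscle, 39.4% in KO mixed muscle and 40.6% on treatment. The share of all genes not called in any of them was not computed, so these counts are not read as a trait of the family. Among the 31 were Hspa8, Hspa5, Hspd1, Hspe1, Hsph1, Hspb1, Hspb6, Dnajb1, Dnajb6, Dnajb9, Dnajc3, Dnajc5 and Dnaja4.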

How the data were processed

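RNA-seq (poly(A) RNA, single-end reads of 61 bases) was made from quadriceps and cord of 15 mice. The deposited table holds, for 17420 genes and 30 libraries, a scaled signal that the authors computed from reads; cutadapt, RSEM, edgeR and limma on GRCm38 are named, without versions, per the submitters' processing notes. Each signal value equalled a whole number of reads plus 0.5, divided by the library's scaled size, for 100% of values within 0.001 reads. The annotation, the gene filter and the use of strand are not given in the sources used here.

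Groups were taken from the labels, and cord libraries of treated mice were joined to their columns by the animal number in the title. All 65 members were found by name; 265 rows carry no gene name. The members and gene lists were chosen with earlier results of these data known. Named members were a fixed set of 20, the 10 called members with the largest change in each direction, all called members of treated KO against WT in quadriceps, and up to 3 genes per partner list, with Dnajc15 and Hspa8 in the background comparison of cord and Dnajb4 on treatment named after their values were seen. Differences were fitted with limma 3.58.1 (trend, R 4.3.3) on log2(signal + 0.5), with all 15 libraries of a tissue in 1 fit, for genes that had 1 unit or more in 3 or more libraries: 14113 in quadriceps and 15838 in cord. Quadriceps minus cord was fitted over 13187 genes with no term for the animal; deviations from group means correlated between the tissues of 15 of 15 animals (r from 0.109 to 0.354). Alternatives were a pseudocount of 2, a filter at 4 or none, quantile normalization, a median shift, edgeR 4.0.16 (quasi-likelihood, TMM) on the recovered reads, each library left out, animals 12 and 14 left out together (chosen after the data were seen) and the animal as a block. The fits were tested on simulated data for treated against untreated KO mice, with 100 genes changed by each fold. In quadriceps 26% of 1.5-fold and 84% of 2-fold changes were called, and in cord 69% and 88%. No call in quadriceps thus does not exclude a change of 1.5-fold. Depth limits genes of low signal; intervals of single counts were not used. Levels per kilobase used exon lengths of GENCODE vM21, in which 99.8% of the IDs were found. Promoters are RefSeq's windows. Tables used Python 3.11.15 and pandas 2.3.3.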

Additional observations from a re-analysis of the deposited data

Results flagged for a closer look

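A result is listed here where the effect of the same contrast differed between quadriceps and cord of the same animals, by limma's test of the difference itself over 13187 genes tested in both tissues (Benjamini-Hochberg adjusted p under 0.05). Each value in parentheses is the effect in quadriceps minus the effect in cord, on the log2 scale.

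For the KO effect on B6129, KO against WT was lower in quadriceps for Dnajc28 (-0.89), Dnajc13 (-0.79), Hspa1l (-0.70), Hspa12b (-0.70), Dnajc27 (-0.63), Dnajc21 (-0.38), Hspa9 (-0.35) and Dnaja3 (-0.32). It was higher in quadriceps for Hspb7 (2.08), Hspa2 (0.84), Dnajb11 (0.44), Dnajc18 (0.42) and Dnajc8 (0.23). On this background Hspb7 was 1.79 higher in KO quadriceps and differed by -0.29 in cord. The Hspa1l difference lost its call without any 1 of the 12 libraries, and that of Hspa9 without any 1 of 10.

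On the mixed background, KO against WT was lower in quadriceps for Dnajc13 (-0.94), Dnajc28 (-0.73), Hspa12b (-0.68), Hspa1l (-0.66), Dnajb5 (-0.64), Dnajc27 (-0.54), Dnajb12 (-0.50), Dnaja3 (-0.39), Dnajc21 (-0.35), Dnaja2 (-0.27) and Dnajc11 (-0.25). It was higher in quadriceps for Hspa12a (0.73), Dnajb11 (0.42), Dnajc12 (0.39) and Dnajc14 (0.39). Among the members called, the 4 with the lowest values were the same on both backgrounds, in libraries that the backgrounds do not share: Dnajc13, Dnajc28, Hspa1l and Hspa12b. Hspa1a (-2.00), Hspa1b (-1.82) and Hspb1 (-0.83) lay below Hspa12b on the mixed background and were not called. The mixed-background Hspa1l difference lost its call without any 1 of 9 libraries, and that of Dnaja2 without any 1 of 6.

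The effect of treatment, treated against untreated KO mice, was lower in quadriceps than in cord for Hspb8 (-0.98), Dnaja1 (-0.90), Hspa2 (-0.75), Dnajc24 (-0.49), Dnajc19 (-0.40), Dnajb11 (-0.38) and Dnajc14 (-0.31). It was higher in quadriceps for Hspa12b (1.03), Dnajc13 (0.93), Dnajb5 (0.86), Dnajc27 (0.77), Dnajc28 (0.75), Hspa1l (0.72), Dnajb12 (0.63), Dnaja3 (0.57), Dnajc21 (0.53), Dnajc11 (0.41) and Dnaja2 (0.25). In cord no member was called for treatment. The calls of Dnajc24 and Hspa1l were each lost without any 1 of 7 libraries, that of Dnajc19 without any 1 of 5 and that of Dnaja1 without any 1 of 4. No cause of these differences was tested.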

How the results depend on the processing

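The values followed here were those of the 10 called members with the largest change in each direction of each comparison. Hspa1a, Hspa1b, Hspb1 and Hspb8 were added in the KO and treatment comparisons within a tissue. Most members without a call were thus left out, and gained calls and sign changes among them are not counted, such as that of Hspb6 above. Of 190 such values, each recomputed under the alternatives that applied to its gene and comparison, 140 kept their direction and their side of the threshold throughout. Under at least 1 alternative 45 lost a call, 2 gained one and 3 changed sign. The sign changes were those of 3 genes in KO against WT quadriceps on the mixed background: Hspa1a (-0.39 in edgeR and -0.86 to 1.39 without 1 library), Hspa1b (-0.12 in edgeR and -0.57 to 1.92 without 1 library) and Hspb1 (0.088 after quantile normalization, 0.56 without animals 12 and 14 and -0.52 to 0.68 without 1 library). Without animals 12 and 14 the members higher and lower were 10 and 11 in KO against WT mixed quadriceps, 12 and 11 in treated against untreated KO and 1 and 1 in treated KO against WT.

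Without 1 library the number of members called in quadriceps ran from 15 to 18 in KO against WT on B6129, from 17 to 23 on the mixed background, from 17 to 21 in treated against untreated KO, from 1 to 2 in treated KO against WT and from 0 to 1 in the difference of KO effects. In cord it ran from 1 to 2 on B6129, from 5 to 9 on the mixed background, from 9 to 16 in treated KO against WT and from 43 to 46 between WT groups. It stayed at 0 for treated against untreated KO cord, for the difference of KO effects in cord and between WT quadriceps of the backgrounds. Between tissues it ran from 9 to 12 and from 12 to 16 for the KO effects on B6129 and the mixed background, from 14 to 18 for treatment and from 48 to 50 for WT quadriceps against WT cord. For KO against WT in mixed cord quantile normalization gave 6 calls (3 higher and 3 lower) and a median shift 4 higher and 10 lower, against 4 and 6; the cause was not tested. edgeR on the recovered reads called 2454 genes higher and 2605 lower in KO against WT quadriceps on B6129, 2475 and 2936 on the mixed background and 2890 and 2626 for treatment.

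With the animal as a replicate block, the members whose KO effect was higher and lower in quadriceps than in cord numbered 5 and 10 on B6129 and 4 and 11 on the mixed background; the treatment effect gave 12 and 8, and WT quadriceps against WT cord 40 and 12. The block moved no count by over 1.5 times. No paired analysis was possible within a tissue because no animal is in 2 groups there. Depth limits members of low signal.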
